A study of Mus musculus with 4 samples.

Results

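R-spondins and Wnt ligands were described across stromal cell clusters of the mouse small intestine. The genes were 10 of the 18619 genes measured, and they were taken by name, namely Rspo1, Rspo2, Rspo3, Wnt2, Wnt2b, Wnt4, Wnt5a, Wnt5b, Wnt9a and Wnt11. Messenger RNA was counted in single cells with a droplet kit that reads transcripts from their 3-prime ends. The series held 2 wild-type (WT) libraries, labelled with the same Cre and reporter, and 1 library each of LATS1/2 KO mice at 1 week and at 2 weeks, and only LATS1/2 KO 1w was analysed here. The weeks were counted from the delivery of tamoxifen. The mice were adult C57BL/6J carrying Lats1 f/f, Lats2 f/f, a tdTomato reporter and PDGFRb-CreERT2, a Cre recombinase under control of Pdgfrb that tamoxifen switches on, so deletion was limited to cells that use Pdgfrb. LATS1 and LATS2 are the Hippo kinases that restrain the coactivators YAP and TAZ. According to the methods of the study, the muscle layer was removed, cells with CD45, CD326 or CD31 were depleted, the remaining cells were sorted on tdTomato, and clusters of immune and endothelial cells were later removed. Each genotype was represented by a pair of mice, and how many of them gave this library is not given separately. No WT library was analysed, so all comparisons were between cells of 1 library and none was between genotypes. There were no replicates, and therefore no test was made.

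Wnt proteins are lipid-modified signals that act over short distances through Frizzled receptors and their co-receptors. R-spondins do not start this signal themselves. They bind LGR receptors and remove the ubiquitin ligases ZNRF3 and RNF43, which leaves more Wnt receptor on the cell surface. In the intestine both kinds of signal keep the stem cells at the crypt base dividing, and much of both comes from stromal cells under the epithelium, some of which also secrete the BMP antagonist Grem1.

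The library held 4108 cells with 46054627 unique molecular identifiers (UMIs, each standing for 1 captured transcript) and a median of 10726 UMIs per cell. The file marks each cell's column M or F, and some ratios are given within these marks too. A level in CPM is the number of UMIs a gene had for every 1000000 UMIs counted in the cells concerned, and the range in parentheses is its exact 95% Poisson interval. Ratios of levels carry exact binomial intervals, and all intervals cover counting error only, since the cells of 1 library are not replicates. Each transcript is counted from its end, so levels of different genes are transcript counts that were not divided by gene length. Lats1 stood at 14.2 CPM and Lats2 at 53.5 CPM, which does not check the deletion, as a 3-prime tag need not lie in a deleted exon. RNA released by other cells was bounded from Y-linked genes, which in the 2004 cells with at least 5 Xist UMIs stood at 8.64% of their level over the library. The same percent of each gene's library level is called its free RNA bound.

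Clustering without the Wnt and R-spondin genes gave 10 clusters, of which 4 were named from marker lists. Cluster 3 was FB4-like (688 cells), with 4 of 4 markers of submucosal fibroblasts high, and it held Grem1 at 810.6 CPM and Ackr4 at 559.5 CPM. Cluster 7 was FB5-like (205 cells), a name for subepithelial fibroblasts, with Sox6 at 292.5 CPM, Bmp7 at 247.7 CPM and Pdgfra at 1978.4 CPM. Its 12.4 CPM of Foxl1, a defining marker of such cells, was below the 25.2 CPM of cluster 8, and Kcnj8 and Abcc9, which are also known from pericytes, were among its 10 leading genes. Cluster 10 was vFB3-like (45 cells, 5 of 5 markers) and cluster 8 SMC-like (76 cells, 6 of 6 smooth muscle markers), although cluster 8 also held the fibroblast gene Adamdec1 at 4236.5 CPM. Cluster 9 (69 cells) had 6 of 6 mural markers high but none among its 10 leading genes, and it was left unnamed. Clusters 1, 2, 4, 5 and 6 (3025 cells) all had Adamdec1 at 4075.4 CPM or more and were given no name. They are called the Adamdec1 clusters here. Cluster 1 had 3 of 5 vFB3 markers high, and cluster 6 had 2 of 5 vFB3 and 3 of 6 smooth muscle markers high, so cluster 10 does not hold all cells with such markers. Cluster 5 had 2 of 4 FB4 markers high (Ackr4 and Cilp), cluster 2 had 1 (Grem1), and cluster 4 had 2 of 6 mural markers (Rgs5 and Notch3). Of 6 FB5 markers, 2 were high in cluster 10 (Foxl1 and Sox6), and Foxl1 was high in clusters 1 and 6 too. Epithelial and endothelial markers were at or near 0, with Epcam at 0.0869 CPM, Pecam1 at 0 and Cdh5 at 0.152 CPM. Of 3 immune markers Ptprc (0.478 CPM) and Cd52 (1.28 CPM) were near 0. The third, Lyz2, was high in clusters 1, 4, 7 and 10, with 54.8 CPM in the FB5-like and 24.1 CPM in the vFB3-like cluster, and its part in the results was not tested.

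Promoter windows of RefSeq (GRCm38.p6) were on hand for 7 of the 10 genes, and not for Rspo2, Rspo3 and Wnt5a. Only windows that lay wholly before the annotated gene are shown, which left 3 genes, Rspo1, Wnt11 and Wnt5b. Rspo1 and Wnt11 were highest in the FB4-like cluster, and Wnt5b was high in both the FB4-like and the FB5-like cluster. These levels did not enter the choice. Each run is 250 bases long, ends 1 base before the start of transcription, and is written 5′ to 3′ on the strand of the gene. They lie at chr4:124986180-124986429 (plus strand), chr7:98834862-98835111 (plus strand) and chr6:119544348-119544597 (minus strand), and capitals mark a TCF/LEF match.
Rspo1: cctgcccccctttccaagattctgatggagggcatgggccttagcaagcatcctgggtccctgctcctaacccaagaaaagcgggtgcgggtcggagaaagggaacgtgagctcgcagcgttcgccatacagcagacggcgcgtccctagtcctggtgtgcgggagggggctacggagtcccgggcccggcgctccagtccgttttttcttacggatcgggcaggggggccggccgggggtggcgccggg
Wnt11: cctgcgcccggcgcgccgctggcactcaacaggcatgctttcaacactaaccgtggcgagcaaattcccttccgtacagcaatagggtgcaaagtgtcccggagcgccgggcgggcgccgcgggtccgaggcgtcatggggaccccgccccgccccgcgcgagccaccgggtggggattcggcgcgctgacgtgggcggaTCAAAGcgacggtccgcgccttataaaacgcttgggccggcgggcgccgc
Wnt5b: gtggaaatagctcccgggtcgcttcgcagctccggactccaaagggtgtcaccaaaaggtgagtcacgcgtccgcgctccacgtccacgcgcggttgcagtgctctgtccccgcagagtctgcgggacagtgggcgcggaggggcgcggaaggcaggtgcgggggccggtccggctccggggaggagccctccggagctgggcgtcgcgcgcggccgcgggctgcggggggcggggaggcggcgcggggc
The letters searched on both strands were CTTTGA, the core bound by TCF/LEF factors of the Wnt pathway, and GGAATG, the core bound by the TEAD partners of YAP, and these do not overlap each other. CTTTGA was present in 2 of the 10 windows of the 7 genes, against 13.8% of all 32851 windows. The match of Wnt11 is in the run above, and that of Wnt5b was in another window of the gene, 71 bases before its start. The 3 runs held 66.8%, 70.8% and 75.2% G and C, against a median of 52.4% over all windows. GGAATG was in 0 of the 10 windows, against 12.6% of all. Such matches describe letters in these windows and say nothing on binding.

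R-spondin transcripts were most abundant in the FB4-like cluster and scarce in the FB5-like cluster. Rspo3, the R-spondin with the most transcripts, made up 74.3% (73.0 to 75.6%) of the 4351 R-spondin UMIs of the library. Its level was 120.1 CPM in the FB4-like cluster (112.9 to 127.7), 109.8 in cluster 2, 83.8 in cluster 5, 80.8 in the vFB3-like cluster, 42.3 in cluster 1, 40.6 in cluster 4, 38.4 in cluster 6, 35.2 in cluster 9, 23.9 in the SMC-like cluster and 13.2 in the FB5-like cluster (9.09 to 18.5). Thus the FB4-like cluster and cluster 2 did not differ beyond counting error (ratio 1.09, 0.995 to 1.20), and from cluster 1 downward no cluster differed from the next in this order when all cells were read. The gap between cluster 2 and cluster 5 was larger than counting error (1.31, 1.17 to 1.47), though not in M columns (1.14, 0.969 to 1.34). In M columns cluster 1 was below cluster 4 (0.702, 0.515 to 0.952). The vFB3-like level joined 112.4 CPM in M and 52.4 CPM in F columns, and its ratio to cluster 1 was 4.69 (2.97 to 7.25) in M and 1.02 (0.576 to 1.68) in F columns. Rspo3 lies at chr10:29452416-29535867 on the minus strand of mm10 and overlaps Gm20276 and Gm48159, so reads could be shared with Gm20276, which has the same strand, and the value is uncertain to that extent.

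Rspo1, a related potentiator of Wnt signals, was more restricted. It stood at 28.7 CPM in the FB4-like cluster (25.2 to 32.5), 19.7 in cluster 2, 15.6 in cluster 5, 9.58 in cluster 4, 5.63 in cluster 1, 3.2 in cluster 6 and 1.33 (1 UMI) in the SMC-like cluster. No UMI was found in the FB5-like cluster, where 3 UMIs would be 1.2 CPM, nor in cluster 9 or the vFB3-like cluster. The FB4-like cluster was above cluster 2 beyond counting error (1.45, 1.17 to 1.80), and it held 40.1% of all 611 Rspo1 UMIs with 16.7% of the cells. Rspo2 had 506 UMIs, 43.9% of them in the FB4-like cluster. Its level there was 26.0 CPM (22.7 to 29.6), followed by 13.1 in cluster 5 and 12.6 in cluster 2, which did not differ from each other (1.03, 0.75 to 1.42). In clusters 4 and 1 it was 6.17 and 5.97 CPM and in cluster 6 it was 2.67. Cluster 9 (4 UMIs, 7.04 CPM) and the SMC-like cluster (3 UMIs, 3.99 CPM) rested on few UMIs, the vFB3-like cluster had none, and the FB5-like cluster stood at 0.8 CPM, under the free RNA bound of 0.949 CPM. The gene lies at chr15:43020794-43170826 and Rspo1 at chr4:124986430-125009099.

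Of the canonical Wnt ligands, Wnt2b was the most abundant with 1109 UMIs, and each cluster held at least 3 of its UMIs. Wnt2b activates beta-catenin and is known as a stem cell factor of the gut stroma. It stood at 33.8 CPM (30 to 38.0) in the FB4-like cluster, 32.0 in cluster 2, 31.3 in cluster 5, 23.9 in the SMC-like cluster, 23.2 in cluster 6, 19.4 in cluster 4, 16.2 in cluster 1, 10.3 in the vFB3-like cluster, 5.28 in cluster 9 and 2.8 in the FB5-like cluster (1.13 to 5.77). No pair of neighbours in this order differed beyond counting error in all cells, but in F columns cluster 6 was above cluster 4 (1.76, 1.22 to 2.53), and the vFB3-like UMIs were all in M columns. The gene lies at chr3:104945272-104961921 on the minus strand and overlaps Gm43846 on the same strand, so reads could be shared and the value is uncertain to that extent. The intervals of the FB5-like cluster and of cluster 9 (3 UMIs, 1.09 to 15.4) span the free RNA bound of 2.08 CPM, so these levels cannot be told from background. Wnt2, a close relative, was rare, with 85 UMIs in 1.7% of cells. It stood at 6.09 CPM in the FB4-like cluster (4.55 to 7.98), at 2.23 in cluster 5, 2.13 in cluster 2 and 1.07 in cluster 6, with 1 UMI in cluster 9. It was at 0 in clusters 1 and 4 and in the FB5-like, SMC-like and vFB3-like clusters. Wnt9a, another ligand of the canonical kind, had 207 UMIs and stood at 12.1 CPM in the FB4-like cluster (9.84 to 14.6) against 2.14 to 4.26 CPM in the Adamdec1 clusters.

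**Figure D1:**
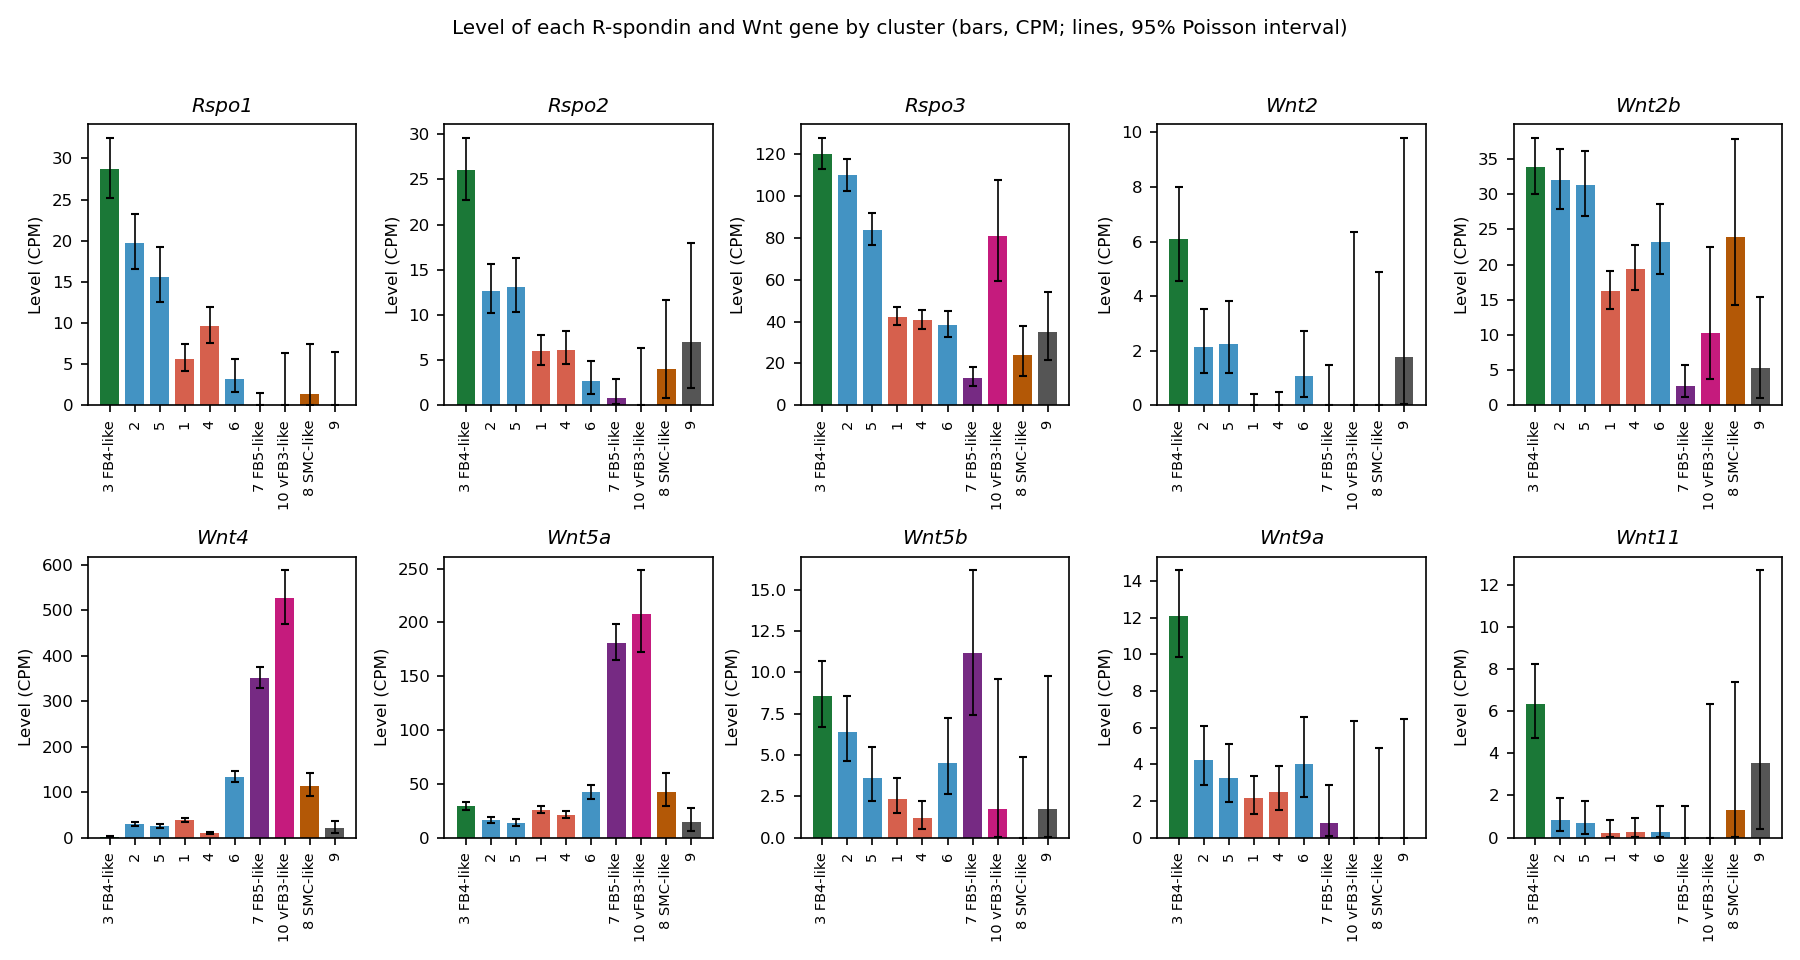
Level of each gene in CPM (bars, linear axes that start at 0 and differ between panels) in the 10 clusters, with 95% Poisson intervals as lines; green is FB4-like, blue the YAP-target-low and red the YAP-target-high Adamdec1 clusters, purple FB5-like, pink vFB3-like, orange SMC-like and grey cluster 9. The R-spondins, Wnt2, Wnt2b, Wnt9a and Wnt11 are highest in the FB4-like cluster, while Wnt4 and Wnt5a are highest in the vFB3-like and FB5-like clusters.

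Wnt4 had the widest range of levels in CPM of the 10 genes. Wnt4 can signal with or without beta-catenin depending on the receptor. Its level was 526.3 CPM in the vFB3-like cluster (469.0 to 588.7), 351.8 in the FB5-like cluster (328.9 to 375.8), 134.1 in cluster 6, 114.2 in the SMC-like cluster, 38.8 in cluster 1, 29.1 in cluster 2, 25.2 in cluster 5, 21.1 in cluster 9, 9.06 in cluster 4 and 1.4 in the FB4-like cluster (0.726 to 2.45). The FB4-like level lies under the free RNA bound of 4.81 CPM and so cannot be told from background. The vFB3-like cluster exceeded the FB5-like cluster (1.5, 1.31 to 1.71), whereas the ratio of cluster 6 to the SMC-like cluster was 1.17 (0.932 to 1.49). That ratio joined opposite directions, 3.52 (1.89 to 7.42) in M and 0.721 (0.545 to 0.962) in F columns. Smooth muscle markers were high in both of these (3 of 6 and 6 of 6) and in the FB5-like cluster (3 of 6), but also in cluster 9 (5 of 6), where Wnt4 was low. The vFB3-like cluster, where Wnt4 was highest, had only 1 of 6 high (Des). The part of smooth muscle markers in the Wnt4 level was not tested. The FB5-like cluster held 34.3% of the 2564 Wnt4 UMIs with 4.99% of the cells. Wnt4 lies at chr4:137277489-137299726 on the plus strand, and no annotated gene overlaps it.

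Wnt5a, the main non-canonical ligand, which acts through ROR receptors on cell shape and movement, shared the top of this order. It stood at 208.1 CPM in the vFB3-like cluster (172.7 to 248.7), 181.3 in the FB5-like cluster (165.0 to 198.8), 42.5 in the SMC-like cluster, 42.1 in cluster 6, 29.0 in the FB4-like cluster, 25.8 in cluster 1, 20.9 in cluster 4, 16.2 in cluster 2, 14.1 in cluster 9 and 13.7 in cluster 5. The upper 2 clusters did not differ beyond counting error (1.15, 0.932 to 1.41), and both lay far above the next (FB5-like over SMC-like 4.26, 2.98 to 6.31). The latter ratio was 2.37 (1.42 to 4.23) in M and 6.33 (3.83 to 11.2) in F columns. Unlike Wnt4, Wnt5a was therefore present in the FB4-like cluster above its free RNA bound of 3.01 CPM. Wnt5b, its close relative, was highest in the FB5-like cluster at 11.2 CPM (7.45 to 16.2), but the FB4-like level of 8.55 CPM (6.7 to 10.7) did not differ from it (1.31, 0.816 to 2.05). Wnt5b shares its locus at chr6:119432531-119544347 with Fbxl14 on the opposite strand. Wnt11, also non-canonical and the rarest gene with 72 UMIs, had 54 of them (75%) in the FB4-like cluster, where it stood at 6.32 CPM (4.75 to 8.25). It reached 0.852 CPM at most in the Adamdec1 clusters. Cluster 9 with 3.52 CPM rested on 2 UMIs and did not differ from the FB4-like cluster beyond counting error (1.8, 0.474 to 15.2).

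Set against the Adamdec1 clusters together, the FB4-like cluster held 6 of the 10 genes at 2 times or more and 1 gene at 0.5 times or less. Over all 13305 genes with at least 20 UMIs, 4.81% were at 2 times or more and 7.75% at 0.5 times or less. The median ratio was 2.55 for the 10 genes and 0.923 for all genes. Wnt11 had the highest ratio (14.0, 7.76 to 26.6), followed by Wnt2 (6.3, 3.98 to 10.1), Wnt9a (3.91, 2.95 to 5.2), Rspo2 (3.13, 2.61 to 3.75), Rspo1 (2.6, 2.2 to 3.07) and Wnt5b (2.5, 1.84 to 3.39). Within marks Wnt5b was at 4.03 in M and 1.74 in F columns, so it left the fold in F columns, and Wnt2 was at 10.2 and 3.88. Rspo3 lay just outside at 1.9 (1.76 to 2.05), with 120.1 against 63.1 CPM. Wnt2b (1.43) and Wnt5a (1.3) were higher beyond counting error but under the fold. Wnt4 was the gene that went the other way, with 1.4 CPM against 38.3 CPM (0.0367, 0.0189 to 0.0643). The contrast narrowed against cluster 2 alone, the Adamdec1 cluster with the most Rspo3, where 4 of 10 genes were at 2 times or more, against 5.45% of 12015 genes, and 1 (Wnt4) at 0.5 times or less, against 4.95%. Rspo1 was at 1.45 there. Of the 4 genes, Rspo2 was at 1.46 in M columns and Wnt2 at 1.44 in F columns, and Wnt9a and Wnt11 were past 2 times in both. Rspo1 was at 1.12 (0.785 to 1.62) in M and 1.65 (1.26 to 2.18) in F columns.

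In the FB5-like cluster the same comparison could be made for 9 genes with at least 20 UMIs. Here 3 of the 9 were at 2 times or more, against 7.02% of 13101 genes, and 6 were at 0.5 times or less, against 14.2%. The 3 were Wnt4 (351.8 against 38.3 CPM, 9.18, 8.41 to 10.0), Wnt5a (181.3 against 22.3 CPM, 8.11, 7.2 to 9.13) and Wnt5b (3.28, 2.09 to 5.0). The 6 were all 3 R-spondins, Wnt2, Wnt2b and Wnt9a, with Rspo3 at 0.209 (0.144 to 0.295), Wnt2b at 0.118 (0.0473 to 0.244) and Wnt9a at 0.26 (0.031 to 0.963). For Wnt2, with 0 UMIs in the FB5-like cluster and 32 in the others, the interval reached 1.62, so a lower level was not detectable at this depth. Both comparisons share the Adamdec1 cells. Set directly against the FB4-like cluster, the FB5-like cluster had 2 genes at 2 times or more, Wnt4 (250.4, 142.6 to 486.4) and Wnt5a (6.24, 5.34 to 7.32), and 7 genes at 0.5 times or less. Over 11640 genes, 11.0% were at 2 times or more and 12.2% at 0.5 times or less in this comparison. The denominator of the Wnt4 ratio lies under the free RNA bound.

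The vFB3-like cluster, which shared 2 of 6 FB5 markers, had high Wnt4 and Wnt5a like the FB5-like cluster but held Rspo3 at 80.8 CPM (59.4 to 107.5), 6.12 times the FB5-like level (3.84 to 9.86). This ratio was 11.0 in M and 3.39 in F columns. No Rspo1 or Rspo2 UMI was seen in its 581385 UMIs. The SMC-like cluster had Wnt4 at 2.98 times (2.37 to 3.71) and Wnt5a at 1.9 times (1.29 to 2.71) the Adamdec1 level. The Wnt4 value rested on F columns (4.75, 3.69 to 6.05), and in M columns, with 24 SMC-like cells, it was 0.915 (0.437 to 1.69). Wnt5a was at 3.12 (1.76 to 5.15) in M and 1.37 (0.773 to 2.24) in F columns. The SMC-like cluster had Rspo3 at 0.379 (0.224 to 0.6) and Wnt2b the same within counting error (1.01, 0.594 to 1.60).

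**Figure D2:**
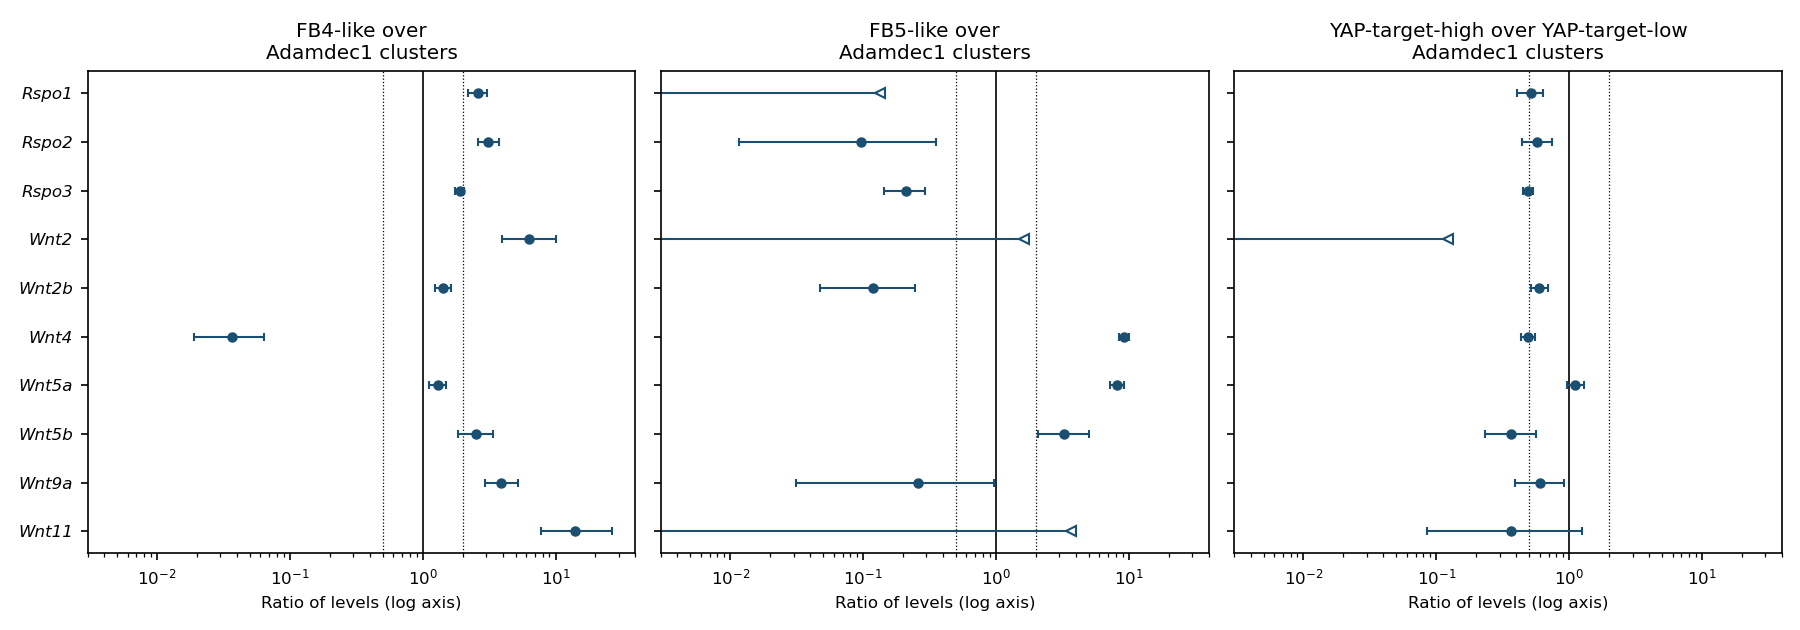
Ratio of levels of each gene in 3 comparisons on a log axis (points, with 95% binomial intervals; open arrowheads mark the upper bound where the first set had 0 UMIs; dotted lines stand at ratios of 0.5 and 2). Wnt4 lies at 0.0367 in the FB4-like and at 9.18 in the FB5-like comparison, and no gene lies above 2 in the YAP comparison.

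The Adamdec1 clusters differed among themselves in targets of YAP and TAZ. They were split at the widest gap in Amotl2, a YAP target that was kept out of the clustering, into clusters 1 and 4 (194.3 and 283.0 CPM) and clusters 2, 5 and 6 (49.7, 77.8 and 63.5 CPM). Of 9 genes with at least 20 UMIs, 0 were at 2 times or more in the YAP-target-high clusters, against 3.08% of 12949 genes, and 4 were at 0.5 times or less, against 3.85%. The median ratio was 0.512 for the 9 genes and 0.972 for all genes. Wnt2 had 0 UMIs in 1400 YAP-target-high cells, where 3 UMIs would be 0.182 CPM, and 32 UMIs (1.93 CPM) in 1625 YAP-target-low cells. Wnt5b was at 0.364 (0.231 to 0.559), Wnt4 at 0.487 (0.432 to 0.549) and Rspo3 at 0.491 (0.447 to 0.538), with 41.5 against 84.6 CPM. Rspo1 (0.512), Rspo2 (0.575), Wnt2b (0.595) and Wnt9a (0.598) lay just outside the fold. Rspo2 stood at 4.73 (3.19 to 6.75) against 12 CPM (9.86 to 14.6) in M columns. In F columns it was at 6.89 (5.37 to 8.71) against 8.83 CPM (6.87 to 11.2), intervals that overlap. With the clusters pooled, Wnt5a did not differ beyond counting error (1.11, 0.958 to 1.29). The immune marker Lyz2 stood at 31.0 CPM in the YAP-target-high and 9.15 CPM in the YAP-target-low clusters. Of the genes targeted by the deletion, Lats1 stood at 10.3 CPM (8.81 to 12) in the YAP-target-high and at 17.3 CPM (15.3 to 19.4) in the YAP-target-low clusters, and Lats2, itself a known target of YAP, at 73.3 CPM (69.3 to 77.6) and 37.7 CPM (34.8 to 40.8). Neither level checks the deletion.

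These pooled ratios hid differences between the clusters. Rspo3 was lower in cluster 1 than in cluster 2 (0.386, 0.34 to 0.437) and in cluster 4 than in cluster 5 (0.484, 0.418 to 0.559). In M columns the first pair stood at 24 and 97.5 CPM and the second at 34.1 and 85.5 CPM. In F columns they stood at 51.3 and 119.9 CPM and at 45.8 and 81.6 CPM, so the second left the fold there. These pairs set like with like as far as possible for immediate early genes, which respond to cell handling. Fos stood at 108.4 and 574.2 CPM in clusters 1 and 2 and at 1847.5 and 2887.2 CPM in clusters 4 and 5, so it was lower on the YAP-target-high side of both pairs, and its part in the result was not tested. Cluster 6 was as low in Rspo3 as the YAP-target-high clusters (cluster 1 over cluster 6 1.10, 0.907 to 1.35), and its Rspo1 was lower than that of cluster 4 (cluster 4 over cluster 6 2.99, 1.61 to 6.06). The higher R-spondin levels on the YAP-target-low side were thus those of clusters 2 and 5. Of the 4 FB4 markers, 3 moved with these levels. Clusters 2 and 5 held 13.6 and 26.3 CPM of Cilp, where the other Adamdec1 clusters held 0.788 to 6.67 CPM. In the same order Cd81 was at 14.8 and 19.9 against 2.7 to 5.33 CPM, and Grem1 at 139.5 and 120.1 against 64.0 to 104.6 CPM. Ackr4 was at 30.7 and 65.8 CPM there, but also at 33.6 CPM in cluster 4, while clusters 1 and 6 held 15.9 and 6.93 CPM. All lay far under the FB4-like levels, and their part in the result was not tested. For Wnt4 the order was different. Cluster 6 had 134.1 CPM, cluster 1 was above cluster 2 (1.33, 1.12 to 1.59) and cluster 5 (1.54, 1.26 to 1.88), and cluster 4 was below all of them. The pooled Wnt4 ratio under 1 thus rested on clusters 4 and 6, and cluster 1 went the other way against clusters 2 and 5. Wnt5a was higher in cluster 1 than in clusters 2 (1.59, 1.27 to 2.01) and 5 (1.88, 1.45 to 2.45). It was also higher in cluster 4 than in clusters 2 (1.29, 1.01 to 1.65) and 5 (1.52, 1.15 to 2.01). Against cluster 6, clusters 1 (0.612, 0.498 to 0.754) and 4 (0.495, 0.395 to 0.621) were lower. The pooled Wnt5a ratio near 1 thus joined opposite directions. Median depth was 11876.5 and 11370.5 UMIs per cell in clusters 1 and 4 and 9451.5 to 9884.5 in clusters 2, 5 and 6. The count of genes at 0.5 times or less was also 4 among cells with 8000 to 14000 UMIs, but it fell to 2 at clustering resolution 1.0, to 2 with M and F columns integrated and to 1 among cells with at most 5% mitochondrial UMIs. Rspo3 was then at 0.547, 0.524 and 0.564 and Wnt4 at 0.564, 0.582 and 0.582, so both stayed lower but left the fold. In F columns Rspo3 stood at 49 against 94.5 CPM and Wnt4 at 23 against 40.4 CPM, so both left the fold there as well. At resolution 0.2 Wnt4 was at 0.503.

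The FB4-like cluster itself split at a finer resolution into a part of 177 cells high in Amotl2 and Vegfc and a part of 510 cells low in them, and 1 cell fell in neither. Rspo1 was higher in the high part (39.0 against 24.9 CPM, 1.57, 1.2 to 2.05), with 1.27 (0.691 to 2.21) in M and 1.51 (1.1 to 2.06) in F columns, and Rspo2 was lower (17.6 against 29.2 CPM, 0.601, 0.417 to 0.848). Wnt11 (1.71 against 8.07 CPM) and Wnt2 (1.29 against 7.91 CPM) were also lower in the high part, by ratios of 0.212 (0.0557 to 0.578) and 0.163 (0.0324 to 0.504). In the high part Wnt11 rested on 2 UMIs in M columns (2.87 against 7.78 CPM) and 2 in F columns (1.22 against 8.33 CPM). Wnt2 rested on 3 UMIs there. The Rspo3 ratio was 0.887 (0.767 to 1.02), with 0.639 (0.467 to 0.86) in M and 0.947 (0.798 to 1.12) in F columns. Wnt2 was thus scarce in YAP-target-high cells of both kinds, whereas Rspo1 was lower in such cells of the Adamdec1 clusters and, in all cells and in F columns, higher in those of the FB4-like cluster.

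The ligands were also summed by family. Summed R-spondin levels were 174.8 CPM in the FB4-like cluster, 142.2 in cluster 2, 112.5 in cluster 5 and 44.3 to 56.3 in clusters 1, 4 and 6, and 14.0 in the FB5-like cluster. Summed levels of the 7 Wnt genes were 746.5 CPM in the vFB3-like cluster, 547.8 in the FB5-like cluster, 209.3 in cluster 6 and 97.3 in the FB4-like cluster. In the FB4-like cluster Wnt2b (34.8%, 31.5 to 38.1%) and Wnt5a (29.8%, 26.7 to 33.1%) led the 831 Wnt UMIs, and Wnt4 gave 1.44%. In the FB5-like cluster Wnt4 gave 64.2% (61.6 to 66.8%) and Wnt5a 33.1% of 1369 Wnt UMIs. Rspo3 gave the larger share of R-spondin UMIs in every cluster, from 68.7% in the FB4-like cluster (66.3 to 71.1%) to 100% of 47 UMIs in the vFB3-like cluster.

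**Figure D3:**
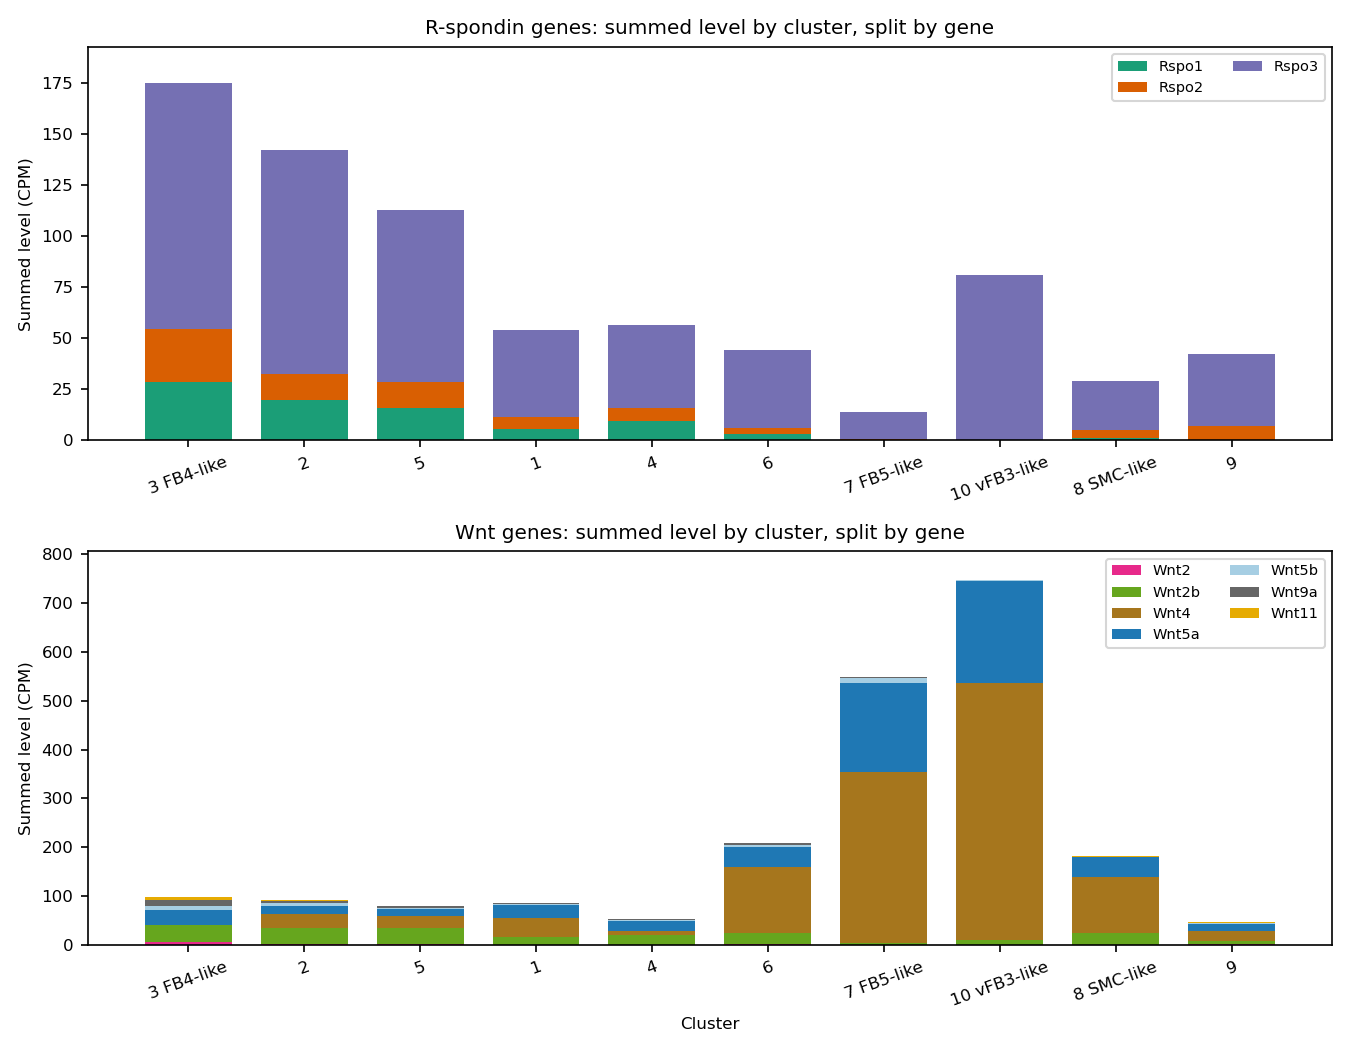
Summed level in CPM of the 3 R-spondin genes (upper panel) and the 7 Wnt genes (lower panel) in each cluster, split by gene (colours; linear axes that start at 0). The R-spondin sum is highest in the FB4-like cluster at 174.8 CPM and the Wnt sum in the vFB3-like cluster at 746.5 CPM, where Wnt4 and Wnt5a make up nearly all of it.

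Counted as cells rather than transcripts, the picture depended on depth, so each cell was thinned at random to 5000 UMIs, which left out 94 shallower cells. At that depth Rspo3 was seen in 40% of FB4-like cells (36.3 to 43.8%) and 3.5% of FB5-like cells (1.42 to 7.08%), and without thinning in 60.3% and 7.8%. Wnt4 was seen in 79.5% of vFB3-like cells (64.7 to 90.2%), 74.0% of FB5-like cells (67.3 to 79.9%), 33.2% of cluster 6 and 0.591% of FB4-like cells (0.161 to 1.51%), a share read as background, since the level there lay under the free RNA bound. Without thinning these were 95.6%, 91.2%, 44.7% and 1.6%. Wnt5a was seen in 50.0% of both vFB3-like and FB5-like cells and in 12.9% of FB4-like cells, and without thinning in 66.7%, 77.1% and 26.7%. Rspo1 was seen in 13.7% of FB4-like cells (11.2 to 16.6%) and in none of 200 FB5-like cells (0 to 1.83%), and without thinning in 25.3% and none of 205. Median depth was 12089.5 UMIs in FB4-like and 11829.0 in FB5-like cells, which are close to each other.

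**Figure D4:**
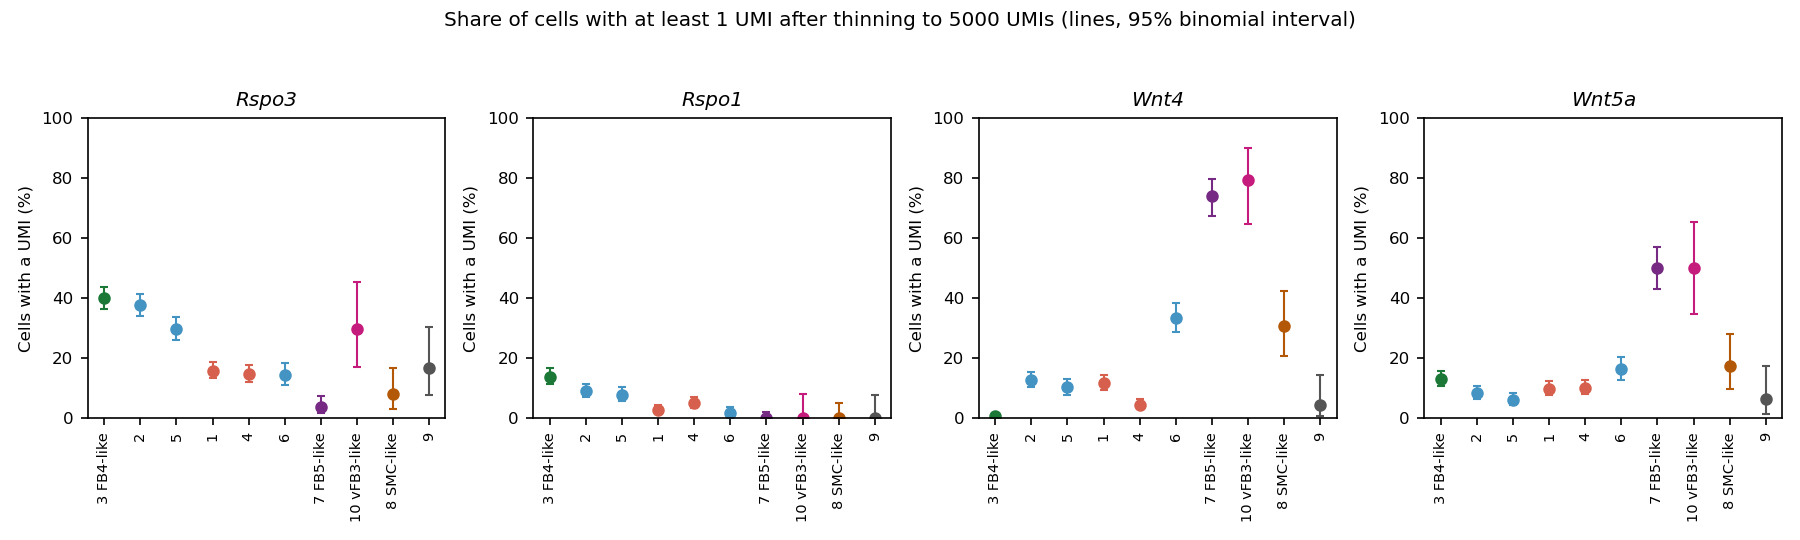
Share of cells with at least 1 UMI (percent, axes from 0 to 100) of Rspo3, Rspo1, Wnt4 and Wnt5a in the 10 clusters after thinning to 5000 UMIs per cell, with 95% binomial intervals and colours by cluster as in the plot of levels. Wnt4 is seen in 74.0% of FB5-like cells and 0.591% of FB4-like cells, and Rspo3 in 3.5% and 40%.

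At the same depth 54.1% of FB4-like cells (50.2 to 57.9%) had a UMI of any R-spondin and 35.7% of any of the 7 Wnt genes, and 20.1% had both. In the FB5-like cluster these shares were 4.0%, 87.5% and 3.5%. Within the Adamdec1 clusters Rspo3 and Wnt4 were seen together in 58 of 2970 cells, where the product of their shares gives 86.2 cells. In cluster 6 they met in 5 of 370 cells, where the product gives 17.6, and in cluster 1 in 1 of 722 cells, where it gives 13.1. In cluster 4 the count was 3 against 4.1, and in clusters 2 and 5 the counts of 33 and 16 were close to the product (32.7 and 16.0). These counts describe 1 sparse library.

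Over the 10 clusters, log2(CPM + 10) of Rspo1 and Rspo2 had a Pearson r of 0.90, Wnt4 and Wnt5a one of 0.87, and Rspo2 and Wnt4 one of -0.87. These are descriptions over 10 clusters of 1 library. Among 10330 other genes with at least 200 UMIs, the nearest patterns were Dcn (0.975), Adcyap1r1 (0.955) and Pgm3 (0.95) for Rspo1. For Wnt4 they were 2810004N23Rik (0.96), Cep192 (0.954) and Uqcc1 (0.953), and for Wnt11 Cd81 (0.992), Pi16 (0.990) and Gngt2 (0.978). Cd81 is one of the markers by which the FB4-like cluster was named.

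Other genes of the pathway were read from a list. Of the remaining ligands in the file, Wnt6 had 52 UMIs and Wnt16 had 0. Wnt10b had 14 UMIs, all in the FB4-like cluster at 1.64 CPM. Wls and Porcn, which release and lipid-modify Wnt proteins, were both within 2-fold in the FB4-like, FB5-like and YAP comparisons. Porcn was at 0.49 of the Adamdec1 level in the vFB3-like cluster on 3 UMIs (0.1 to 1.44). Wls stood at 131.6 CPM in the FB4-like, 132.1 in the FB5-like and 110.3 in the Adamdec1 clusters. Among 15 receptors with at least 20 UMIs, 3 were at 2 times or more in the FB4-like cluster (Fzd4 3.48, Fzd7 2.46 and Fzd5 2.39) and 1 at 0.5 times or less, with a median of 0.886, where the shares over all genes were 4.81% and 7.75%. In the FB5-like cluster 2 were up, Ror2 (2.23, 1.79 to 2.75), a receptor for Wnt5a, and Fzd2 (2.04, 1.89 to 2.2), and 5 were at 0.5 times or less, with Fzd1 at 0.166, where the shares over all genes were 7.02% and 14.2%. Fzd2 was also the 1 receptor of 15 at 2 times or more in the YAP-target-high clusters (2.48, 2.34 to 2.63), where 3.08% of all genes were.

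Secreted inhibitors trap Wnt proteins or block their co-receptors. In the FB4-like cluster 2 of 5 were at 0.5 times or less, against 7.75% of all genes, namely Frzb at 0.12 (0.0956 to 0.149) and Dkk2 at 0.222 (0.205 to 0.239), and Sfrp4 was at 16.7 on 43 UMIs. In the FB5-like cluster 3 of 5 were at 0.5 times or less, against 14.2% of all genes, namely Frzb (0.0489), Sfrp1 (0.0904) and Dkk2 (0.183), while Wif1 stood at 61.6 CPM (52.3 to 72.2) and had 0 UMIs in the Adamdec1 clusters. Sfrp1, the most abundant, was at 852.5 CPM in the YAP-target-high and 2523.0 CPM in the YAP-target-low clusters (0.338, 0.331 to 0.344). It was the 1 of 4 inhibitors past the fold there, against 3.85% of all genes, and Dkk2 (1.72, 1.65 to 1.78), Frzb (1.29, 1.20 to 1.40) and Dkk3 (1.22, 1.17 to 1.27) lay on the other side of 1. Of 6 response genes, 0 were at 2 times or more in the FB4-like and FB5-like clusters, and 1 and 2 were at 0.5 times or less, against 7.75% and 14.2% of all genes, so that a single gene of 6 is near the background. Axin2, a general target of beta-catenin, was at 14.2 CPM in the FB4-like, 12.4 in the FB5-like and 18.6 in the Adamdec1 clusters, and in the YAP-target-high clusters Nkd1 was at 2.74 and Apcdd1 at 0.388.

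Xist had UMIs in 0 of 1983 cells of M columns and in all 2125 of F columns, and no barcode was shared. Read within each mark, Rspo3 stood at 106.5 CPM (M) and 130.3 CPM (F) in the FB4-like cluster and at 10.2 and 15.5 CPM in the FB5-like cluster. Wnt4 stood at 385.9 and 326.0 CPM in the FB5-like cluster, at 721.4 and 350.2 CPM in the vFB3-like cluster and at 2.18 and 0.82 CPM in the FB4-like cluster. The study's methods describe a split of cells by presence of Xist, which these marks match, so the match is no check of the marks. A cell in which Xist was missed would be in M columns. The marks split 1 library and are not replicates. The order of the FB4-like, FB5-like and Adamdec1 cells was the same in both for Rspo3 and Wnt4. Wnt5a in the YAP comparison was not, at 0.839 (0.668 to 1.05) in M and 1.41 (1.15 to 1.75) in F columns, and the vFB3-like over FB5-like ratio of Wnt4 was 1.87 (1.57 to 2.22) in M and 1.07 (0.862 to 1.33) in F columns. The same ratio of Wnt5a was 1.65 (1.24 to 2.18) in M and 0.776 (0.555 to 1.06) in F columns.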

How the data were processed

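Stromal cells of 1 LATS1/2 KO 1w library were analysed, and WT and LATS1/2 KO 2w libraries were not analysed here. According to the submitters' processing notes and the study's methods, the authors aligned reads to mm10 with Cell Ranger 3.0.2 and used Seurat, and they excluded doublets at sorting and cells with too many or too few genes (1128 to 5995 genes remained) or over 7% mitochondrial UMIs. No further doublets were removed. To make the deposited values, the authors scaled each cell to 10000 UMIs, added 1 and took the natural log. In all, 100.00% of 13789523 nonzero values came out as whole UMIs (tolerance 0.001), and UMI counts were read back and used for every level. Depth was 1965 to 35727 UMIs per cell.

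Clusters were made with Seurat 5.3.0 in R 4.3.3 from 1972 variable genes, with the Wnt, R-spondin, YAP target and sex-linked genes left out. Depth and mitochondrial share were regressed out, and 30 principal components and resolution 0.5 were used. To count as high, a marker had to be seen in 10% or more of a cluster's cells at 2 or more times the median level elsewhere. A name needed 3 high markers and 1 marker among the 10 leading genes. The rule for names was written with the levels of the clusters already known. Leading genes were ranked by fold among genes seen in at least 30% of a cluster and 15 percentage points more than elsewhere. The split by Amotl2 was placed at its widest ratio between neighbouring Adamdec1 clusters. Intervals were computed in Python 3.11.15 with scipy 1.17.1. Their coverage was tested on counts simulated with counting error only, so that test does not cover spread between cells. At 5000 UMIs per cell the variance over the mean of Wnt4 was 3.9 in the vFB3-like and 1.83 in the FB5-like cluster. It was 1.04 for Wnt9a in the FB4-like cluster. Counting error alone gives about 1, so the Wnt4 intervals leave out such spread. Gene positions came from GENCODE M21.

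The genes named were the 10 genes, the other ligands and pathway genes of a fixed list, cluster markers, and, for Rspo1, Wnt4 and Wnt11, the 3 nearest genes by pattern. Nearest genes were computed for each of the 10, and those of the other genes are not reported here. The genes and lists were chosen with earlier results of these data known. Kcnj8 and Abcc9 were named after their values were seen. The alternatives were other resolutions, nothing regressed out, M and F columns integrated or read alone, Wnt genes kept among the variable genes, other cell filters, free RNA subtracted, a lower UMI minimum, and other thinning. Reading M and F columns alone was planned for the FB4-like, FB5-like and YAP comparisons and was added for the others after the data were seen.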

Additional observations from a re-analysis of the deposited data

How the results depend on the processing

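The count of genes at 2 times or more was 6 under each alternative in the FB4-like comparison, except 5 in F columns, where Wnt5b was at 1.74. It stayed at 3 in the FB5-like and at 0 in the YAP comparison under each. The genes at 0.5 times or less in the YAP-target-high clusters, 4 in the report, were 2 at resolution 1.0, 2 with M and F columns integrated and 1 among cells with at most 5% mitochondrial UMIs. Elsewhere they were 3 to 5, though not always the same genes. In F columns Rspo3 and Wnt4 left the fold and Rspo1 (8.67 against 17.8 CPM) entered it. At resolution 1.0 Rspo3 was at 0.547 and Wnt4 at 0.564. The highest cluster was kept by 6 of 10 genes in M columns and by 8 to 10 elsewhere. The cause was not tested. With the lower minimum of 5 UMIs, 7 genes were at 0.5 times or less in the FB5-like cluster. Among ratios past the fold in these comparisons none turned in direction. Other ratios were recomputed within M and F columns only, a choice made after seeing the data, and Wnt4 in the SMC-like against the Adamdec1 clusters turned to 0.915 in M columns. Wnt5a in the YAP comparison lay at 0.934 among cells with 8000 to 14000 UMIs. Genes with few UMIs (Wnt2, Wnt11, Wnt9a, Wnt5b) and clusters 8, 9 and 10 with 45 to 76 cells were limited by depth, and free RNA limits all levels under the bounds given. Shares of cells moved with the thinning depth. No paired analysis was possible because only 1 library was analysed.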
